A study of Mus musculus with 3 samples.

Results

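H3K4me3 was examined in adult mouse hippocampus at 7 neuronal genes, namely Bdnf, Penk, Cnr1, Rgs4, Ppp1r1b, Drd2 and Adora2a. Their transcripts are known to fall in Huntington's disease, and whether they fall in these hippocampi was not measured. H3K4me3, histone H3 trimethylated at lysine 4, marks active and poised promoters. Each of the 7 genes was given a fixed window of the mm9 genome, and every peak that overlapped a window by at least 1 bp was taken. The windows held 8 of the 18515 peaks of the wild-type (WT) library and 9 of the 19631 peaks of the mutant (HD) library. Joined wherever they overlapped, these peaks made 8 of the 20211 marked regions of the series. The WT library came from wild-type mice, and the HD library from littermates of genotype N171-82Q, which carry a transgene for an N-terminal fragment of mutant huntingtin under the prion protein promoter. All mice were adult C57/DBA F1 hybrid males with no treatment named, and each library was a pool of whole hippocampi from 3 animals. With 1 library per genotype there is no replicate spread to measure a difference against, and no p-value was computed. The depth of the libraries is unknown, and peak lengths, edges and pieces can depend on it. The labels add that the raw reads of the WT library also belong to another deposit and say nothing of the kind for the HD library. An input library belongs to the series and was not analysed here.

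H3K4me3 is written by the SET1 and MLL methyltransferase complexes, which are drawn to unmethylated CpG dinucleotides through CXXC domains, so the mark is usually strongest at CpG-rich promoters of transcribed genes. The 7 genes belong to a few related systems. Bdnf encodes brain-derived neurotrophic factor, a secreted survival factor made by excitatory neurons and transcribed from several alternative promoters. Penk encodes proenkephalin, the precursor of the enkephalin opioid peptides. Cnr1, Drd2 and Adora2a encode the cannabinoid CB1 receptor, the dopamine D2 receptor and an adenosine receptor. Rgs4 encodes a GTPase-activating protein that shortens signalling by G proteins, and Ppp1r1b encodes DARPP-32, a phosphatase inhibitor that relays dopamine signals. Penk, Drd2, Adora2a and Ppp1r1b are best known from the medium spiny neurons of the striatum, whereas these libraries are from hippocampus. No RNA was measured in these libraries, and the tissue label was not checked against marker genes, since no mm9 annotation was used here.

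The promoter sequences below belong to members with different results, namely a divided region at Bdnf, an almost equal peak at Rgs4 and a weak peak at Drd2. That of Cnr1 is shown for its sequence alone, since no result of these lists could be tied to the gene. The RefSeq table (GRCm38.p6) held 12 promoters for 4 of the 7 genes, namely Bdnf, Cnr1, Drd2 and Rgs4; Penk, Ppp1r1b and Adora2a had no entry. Each sequence runs from 250 bases before to 50 bases after a transcription start, on the strand of the gene, and CpG dinucleotides are in capitals. The positions are in GRCm38.p6, another build than the mm9 peaks, so where a start lies within a peak was not determined.
Bdnf, start 1 (chr2:109674450-109674749, plus strand): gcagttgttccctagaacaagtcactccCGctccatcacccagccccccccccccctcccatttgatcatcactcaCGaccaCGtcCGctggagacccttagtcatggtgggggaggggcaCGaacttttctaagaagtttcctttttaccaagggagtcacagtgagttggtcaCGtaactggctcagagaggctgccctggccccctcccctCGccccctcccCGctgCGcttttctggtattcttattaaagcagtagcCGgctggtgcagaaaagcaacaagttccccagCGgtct
Bdnf, start 3 (chr2:109692186-109692485, plus strand): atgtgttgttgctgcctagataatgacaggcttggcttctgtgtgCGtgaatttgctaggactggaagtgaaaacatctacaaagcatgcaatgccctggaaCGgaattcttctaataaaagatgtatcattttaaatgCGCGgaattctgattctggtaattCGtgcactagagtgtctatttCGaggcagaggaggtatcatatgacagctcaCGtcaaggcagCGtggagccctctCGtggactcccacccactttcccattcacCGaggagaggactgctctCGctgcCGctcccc
Bdnf, start 5 (chr2:109694159-109694458, plus strand): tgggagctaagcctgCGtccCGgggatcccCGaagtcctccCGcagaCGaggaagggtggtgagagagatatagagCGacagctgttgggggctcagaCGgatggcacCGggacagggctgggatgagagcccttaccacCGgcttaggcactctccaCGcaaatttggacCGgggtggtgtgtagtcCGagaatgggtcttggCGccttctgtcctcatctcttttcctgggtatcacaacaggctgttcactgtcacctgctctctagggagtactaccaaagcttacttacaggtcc
Rgs4 (chr1:169747593-169747892, minus strand): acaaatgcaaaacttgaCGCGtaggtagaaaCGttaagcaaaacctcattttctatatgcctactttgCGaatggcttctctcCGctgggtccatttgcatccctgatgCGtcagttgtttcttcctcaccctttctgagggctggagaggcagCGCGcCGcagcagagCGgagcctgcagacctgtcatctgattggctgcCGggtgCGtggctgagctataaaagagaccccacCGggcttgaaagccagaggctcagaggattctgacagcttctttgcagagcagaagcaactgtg
Drd2 (chr9:49340153-49340452, plus strand): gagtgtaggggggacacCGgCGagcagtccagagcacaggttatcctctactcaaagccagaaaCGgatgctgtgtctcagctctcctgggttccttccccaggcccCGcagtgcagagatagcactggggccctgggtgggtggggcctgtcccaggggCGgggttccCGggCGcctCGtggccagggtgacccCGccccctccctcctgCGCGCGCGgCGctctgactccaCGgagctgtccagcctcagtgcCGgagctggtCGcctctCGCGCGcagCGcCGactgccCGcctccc
Cnr1, start 1 (chr4:33924014-33924313, plus strand): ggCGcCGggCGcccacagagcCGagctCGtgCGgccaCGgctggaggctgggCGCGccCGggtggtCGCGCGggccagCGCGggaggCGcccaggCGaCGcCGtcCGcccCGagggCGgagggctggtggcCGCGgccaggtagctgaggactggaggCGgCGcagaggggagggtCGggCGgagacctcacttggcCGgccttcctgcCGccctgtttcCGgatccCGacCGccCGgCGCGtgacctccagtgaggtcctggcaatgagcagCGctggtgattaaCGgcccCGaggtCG

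The first Cnr1 promoter held 40 CpG in its 300 bases, more than 96.3% of the 32851 mouse promoters in the table, whose median was 7. Cnr1 starts 2 and 3 held 33 and 5 CpG, more than 91.9% and 40.8% of the promoters. Drd2 held 23 CpG, more than 79.2% of the promoters. Rgs4 held 13, and the 7 Bdnf promoters held 2 to 13, with the lowest count at start 6. The letters CGTCA or, on the other strand, TGACG, the core of the cAMP response element, occurred once in Bdnf start 3, in 2 places in Rgs4 and in none of the other member promoters, against 20.8% of all promoters with at least 1 occurrence. The letters TATAAA, on either strand, occurred in Rgs4 alone among the 12, against 13.6% of all promoters. Of these motifs, only CGTCA overlaps the capitals.

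H3K4me3 peaks were found in 6 of the 7 windows in the WT library and in the same 6 windows in the HD library. Every one of the 8 regions had peaks of both libraries. Across the genome 94.5% of WT peaks and 90.7% of HD peaks overlapped a peak of the other list, and 85.9% of all regions were shared. The window of Cnr1 held no peak of either library. No window thus had a peak in 1 genotype only. In whole tissue, a mark on fewer cells and less of the mark per cell cannot be told apart.

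**Figure D1:**
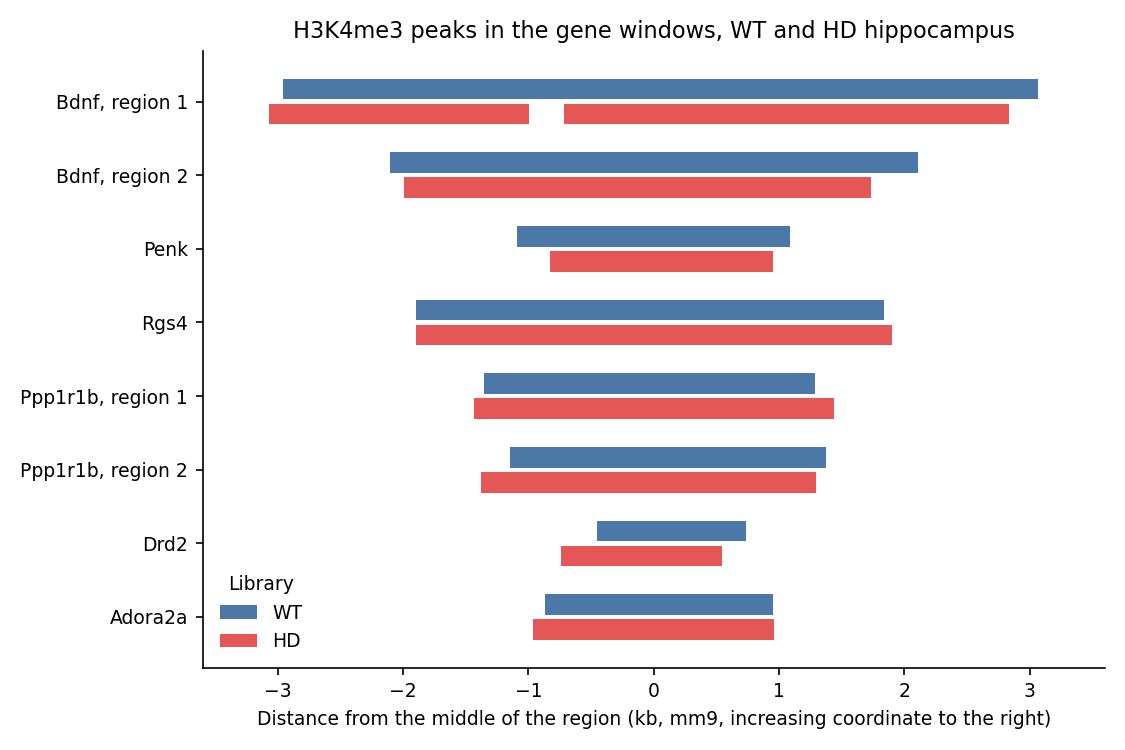
Each row is a marked region, centred on its middle, with the WT peaks in blue and the HD peaks in red along a distance axis in kb; the Cnr1 window had no peak. The first Bdnf region is 1 WT peak of 6026 bp and 2 HD peaks, the second Bdnf peak and the Penk peak are shorter at both ends in HD, and the other HD peaks are 63 to 227 bp longer than the WT peaks.

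Bdnf had the longest summed peak length of the 7 windows. By share of the window under peaks, which is not an amount of the mark either, Ppp1r1b came first with 30.4% in WT and 32.6% in HD, against 17.1% and 15.6% for Bdnf. Its window, from 109.51 to 109.57 Mb on chromosome 2, held 2 regions that covered 10237 bp in WT and 9354 bp in HD, 8.63% less. The first region was a single WT peak from 109513531 to 109519556, 6026 bp wide. In HD the same stretch carried 2 peaks, from 109513418 to 109515494 with a width of 2077 bp and from 109515773 to 109519321 with a width of 3549 bp. The bases between these HD peaks numbered 278. Together the HD peaks covered 5626 bp, 400 bp less than WT, at a log2 ratio of HD over WT of -0.099. Most of the 400 bp is thus the gap itself, since the outer edges of the HD pair spanned 5904 bp.

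Division of a wide region into more HD than WT peaks was common at that width. It occurred in 2.13% of all shared regions, and in 20.6% of the 777 shared regions with at least 5 kb under WT peaks, to which the first Bdnf region belongs. Among the 348 shared regions with 1 WT peak and 2 HD peaks, the gap had a median of 126.5 bp and an upper quartile of 247 bp, so the Bdnf gap was wider than the upper quartile. The WT peak was wider than 98.3% of its list.

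The second Bdnf region was 1 peak in each library. The WT peak ran from 109531926 to 109536136, 4211 bp, and the HD peak from 109532039 to 109535766, 3728 bp. The HD peak covered 483 bp less, 11.5%, with its left edge 113 bp and its right edge 370 bp inside the WT peak. The right edge shifted by less, in either direction, in 89.8% of the 16873 regions with 1 peak of each library, and the left edge in 43.3%. The log2 ratio of this region was -0.18, and 33.1% of all shared regions had a lower one.

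The layout of the Bdnf regions could be set beside the layout of its RefSeq starts as distances, each within its own build. In mm9 the middles of the regions lay 17.5 kb apart, and 12.4 kb without a peak separated them. In GRCm38.p6, starts 1 and 2 lie 2.33 kb apart, starts 3 to 5 follow 17.7, 18.3 and 19.7 kb after the first, and starts 6 and 7 follow at 34.7 and 48.2 kb. The files thus show 2 marked regions at about the spacing of the first 2 groups of starts. No peak of either library lay in the remaining 33.9 kb of the window, and the next region on that side was 194 kb away.

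Penk had the largest relative shortening among the members. Its window, from 4.055 to 4.075 Mb on chromosome 4, held 1 peak of each library. The WT peak ran from 4064621 to 4066796, 2176 bp, and the HD peak from 4064882 to 4066657, 1776 bp. The HD peak covered 18.4% less, a difference of 400 bp, at a log2 ratio of -0.29. Its left edge lay 261 bp and its right edge 139 bp inside the WT peak. Of all shared regions, 16.3% had a lower ratio, so the Penk value lay below the lower quartile of -0.22 and above the 5th percentile of -0.49.

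Rgs4 had nearly the same peak in both libraries. In its window, from 171.66 to 171.69 Mb on chromosome 1, the WT peak ran from 171675121 to 171678856 and the HD peak from 171675116 to 171678914. Their widths were 3736 and 3799 bp, a log2 ratio of 0.024. The left edges differed by 5 bp and the right edges by 58 bp, and 2.14% of the regions with 1 peak of each library had a smaller shift on the left. At 3736 bp the WT peak was wider than 87.9% of its list.

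Ppp1r1b had 2 regions in its window, from 98.205 to 98.222 Mb on chromosome 11, both with slightly more covered length in HD. The first region was 2648 bp in WT, from 98208819 to 98211466, and 2875 bp in HD, from 98208739 to 98211613. The HD peak extended 80 bp further on the left and 147 bp further on the right, for a log2 ratio of 0.12, the highest of the 8 regions. The second was 2522 bp in WT, from 98218822 to 98221343, and 2669 bp in HD, from 98218589 to 98221257. There the HD peak began 233 bp further left and ended 86 bp further inside, for a log2 ratio of 0.082. In RefSeq the next protein-coding gene after Ppp1r1b is Stard3, a cholesterol-binding protein of endosomes. Which of these genes the second region belongs to was not determined.

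Drd2, the dopamine receptor gene, carried a short and low scoring peak in both libraries, and Adora2a, the adenosine receptor gene, did so in WT. In the Drd2 window, from 49.14 to 49.22 Mb on chromosome 9, the WT peak ran from 49148210 to 49149403, 1194 bp, and the HD peak from 49147925 to 49149211, 1287 bp. The HD peak was displaced to the left, beginning 285 bp outside and ending 192 bp inside the WT peak, so that its log2 ratio of 0.11 combines a gain on the left and a loss on the right. Its score was 60.28 in WT and 82.65 in HD, in lists whose lowest score was 50.01. In the Adora2a window, from 74.77 to 74.80 Mb on chromosome 10, the WT peak ran from 74779266 to 74781083, 1818 bp, and the HD peak from 74779170 to 74781092, 1923 bp. The left HD edge lay 96 bp and the right edge 9 bp outside the WT peak, for a log2 ratio of 0.081. The Adora2a score was 77.64 in WT, above 10.1% of its list, and 354.94 in HD, above 32.0% of its list. The Drd2 peaks were wider than 10.4% of the WT list and 20.6% of the HD list, and the Adora2a peaks wider than 33.1% and 44.7%.

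**Figure D2:**
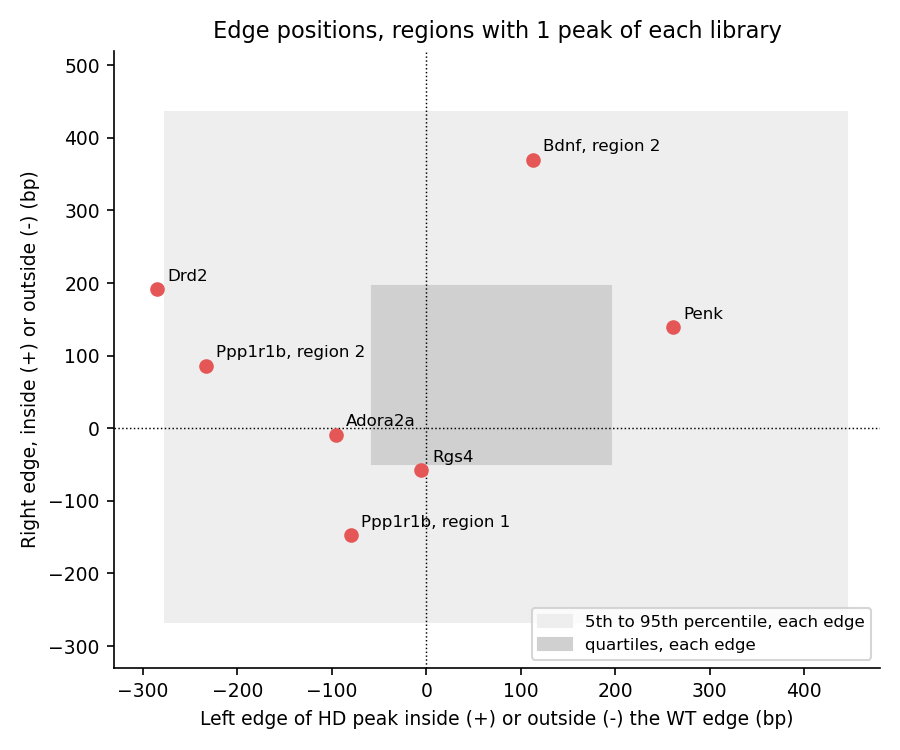
Each point is a region with 1 peak of each library, placed by how far in bp the left (horizontal axis) and right (vertical axis) HD edge lies inside (positive) or outside (negative) the WT edge; shaded boxes give the quartiles and the 5th to 95th percentiles of each edge over all 16873 such regions. The second Bdnf region and Penk lie inside WT at both ends, and the left edge of Drd2, 285 bp outside, falls just past the wide box.

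The direction of the length difference was mixed among the members. HD covered less in 3 of the 8 regions, both of Bdnf and that of Penk, and more in 5, those of Rgs4, Ppp1r1b, Drd2 and Adora2a. These 5 include the second region of the Ppp1r1b window, which was not assigned to Ppp1r1b or Stard3. Over all 17367 shared regions HD covered less in 69.0% and more in 30.8%. The log2 ratios of the 8 regions ran from -0.29 to 0.12 with a median of 0.053, against a median of -0.090 over all shared regions, with quartiles of -0.22 and 0.032. With 8 regions the sign of the median depended on the settings, being -0.037 with a minimum score of 100, which leaves out Drd2 and Adora2a, and -0.033 with windows widened by 10 kb. Each member lay between the 5th and 95th percentiles of all shared regions, -0.49 and 0.28.

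No member region was more than 1.5-fold shorter or longer in HD. Over all shared regions 2.79% were more than 1.5-fold shorter and 0.749% more than 1.5-fold longer, so 0 of 8 is near what this background holds. Summed over the windows, WT peaks covered 24331 bp and HD peaks 23683 bp, 2.66% less, against 6.22% less over all shared regions. Of the 7 regions with 1 peak of each library, both HD edges lay inside the WT peak in 2, both outside in 3, and 1 inside and 1 outside in 2. The same classes held 42.4%, 13.0% and 44.2% of all 16873 regions of this kind.

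**Figure D3:**
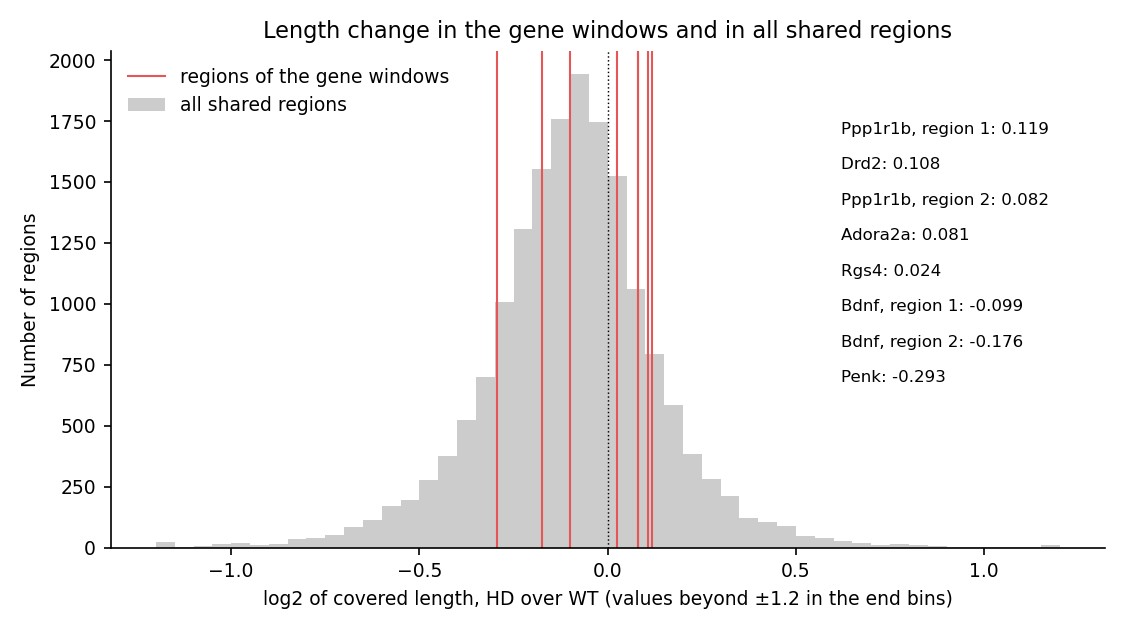
Grey bars count all 17367 shared regions by the log2 ratio of covered length, HD over WT, and red lines mark the 8 regions of the gene windows, with their values listed. The Penk and Bdnf lines lie left of 0 and the other 5 right of it, all within the body of the distribution.

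The regions around the windows were mostly shorter in HD, as were shared regions across the genome. Within 500 kb of the 7 windows lay 74 shared regions, of which 58, 78.4%, were covered less in HD, against 69.0% of all shared regions. Their median log2 ratio was -0.12, against -0.090 over all shared regions. Around Bdnf, 4 of 5 shared regions were covered less in HD, with a median of -0.22, and both Bdnf regions lay above that median. Around Penk, 4 of 5 were covered less, with a median of -0.14 and a lowest value of -0.36, so the Penk peak lay inside the range of its surroundings. Around Rgs4, 6 of 8 were covered less, with a median of -0.12.

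The surroundings of the Ppp1r1b, Drd2 and Adora2a windows also had medians below 0, near the -0.090 of all shared regions. Around Ppp1r1b, 27 of 34 shared regions were covered less in HD, with a median of -0.12. Around Drd2, 5 of 6 were covered less, with a median of -0.11. Around Adora2a, 10 of 13 were covered less, with a median of -0.089. The values around each window ranged on both sides of 0, up to 0.31 around Ppp1r1b, 0.17 around Drd2 and 0.13 around Adora2a, and these highest values exceeded those of the genes' own regions. Regions with HD peaks only were 5 of 18 around Adora2a, 2 of 36 around Ppp1r1b, 2 of 5 around Cnr1 and 1 of 11 around Rgs4. Regions with WT peaks only were 2 of the 11 around Rgs4. Across the genome 85.9% of all regions had peaks of both libraries. These are small counts, and no difference from that share was tested.

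**Figure D4:**
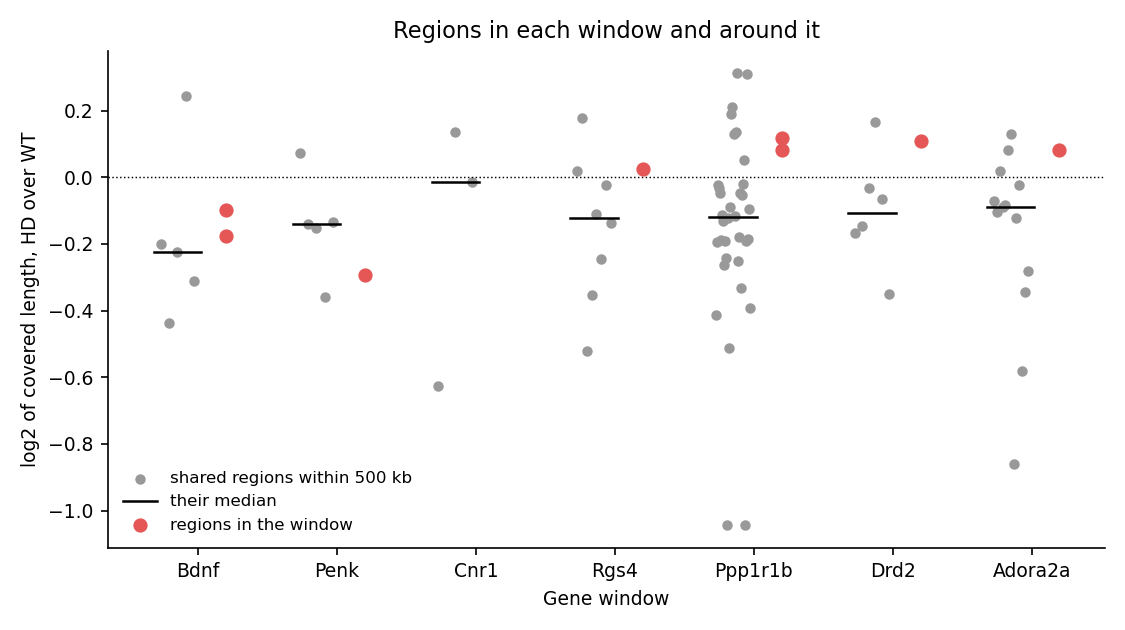
For each gene, grey points are the shared regions within 500 kb of the window, the black line is their median and red points are the regions in the window, on the axis of log2 covered length, HD over WT. Red points lie above the black line for all genes with a peak except Penk.

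The authors' score placed the members at different levels of their lists. The score rises with how clearly a peak stands out but also with library depth, so it was read only as a place in the order of the same 17367 shared regions within each list, taking the highest scoring peak of a region. The first Bdnf region had a score of 1526.24 in WT, above 72.0% of the shared regions, and its higher HD peak had 1160.42, above 43.9%. The WT score is that of the undivided peak, whereas the HD score is that of the wider piece, the narrower scoring 570.41. The second Bdnf region had 1622.28 in WT, above 75.01%, and 1665.98 in HD, above 56.1%. Both Bdnf regions thus stood lower in the HD order than in the WT order. How often other shared regions move as far was not measured, and 2184 of the 19631 HD peaks share a score of 3100.

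Rgs4 also stood lower in the HD order, with a score of 930.92 above 50.1% of the shared regions in WT and 737.15 above 34.3% in HD, although its width was nearly equal. Penk stood at like places, above 28.2% in WT with 329.22 and above 27.2% in HD with 459.36. The Ppp1r1b regions scored 1229.89 and 1328.14 in WT, above 61.8% and 65.2%, and 2147.09 and 1904.74 in HD, above 68.2% and 62.1%. Adora2a stood at 6.18% in WT with 77.64 and at 23.6% in HD with 354.94. Drd2 was near the bottom of both orders, at 2.44% in WT and 4.81% in HD. These places describe 1 library each, and no difference between them was tested. How common such moves are among all shared regions was not measured.

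**Figure D5:**
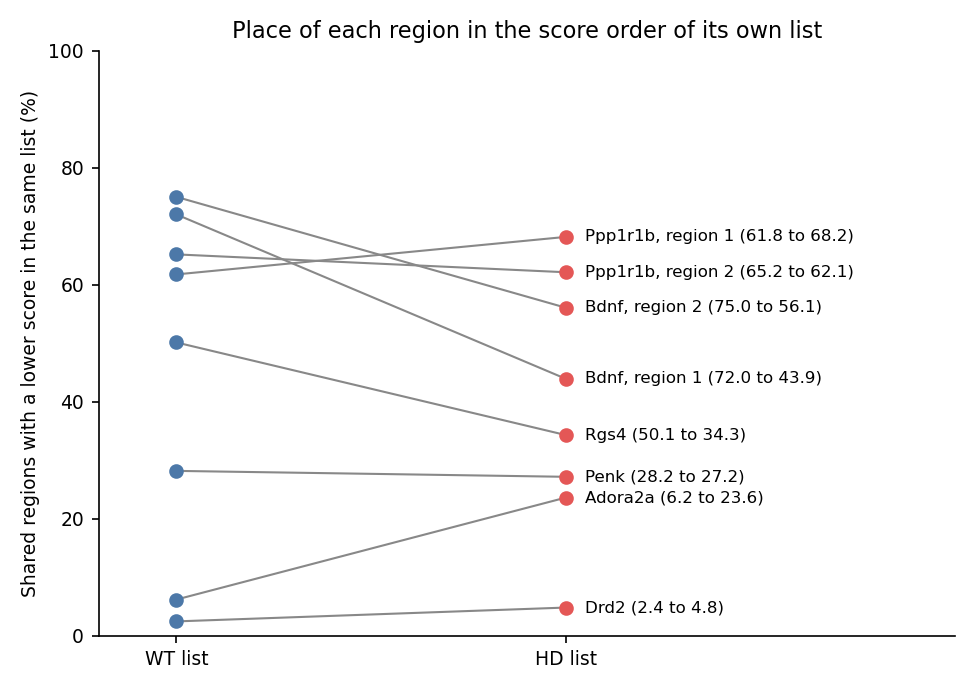
Each line joins the place of a region in the WT list (left, blue) and in the HD list (right, red), as the percentage of all 17367 shared regions with a lower score in the same list. Both Bdnf regions and Rgs4 slope down, Adora2a slopes up from 6.18 to 23.6%, and Drd2 stays near the bottom.

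The empty window of Cnr1 is a result about the window and not about the gene. The window ran from 33.86 to 33.90 Mb on chromosome 4, and the closest region lay 110 kb to its right. That region was 1 WT peak from 34009890 to 34015235, 5346 bp, and 2 HD peaks, from 34009740 to 34013122 and from 34013153 to 34015062, that covered 5293 bp. Its log2 ratio was -0.014. In RefSeq, Cnr1 lies between Rngtt and Spaca1, and the first starts of Rngtt and Cnr1 are 614 kb apart in GRCm38.p6. In the mm9 lists, the middle of the last WT peak to the left of the window lies 615 kb from the middle of the first WT peak to the right, and 482 kb from the middle of the window. Whether the window covers Cnr1 in mm9, and whether the region to its right is the Cnr1 promoter, was not determined, so the absence of a peak in the window was not read as an absence of H3K4me3 at Cnr1. Like the first Bdnf region, this region was 1 wide WT peak facing 2 HD peaks, with 30 bp between them.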

How the data were processed

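H3K4me3 was profiled by chromatin immunoprecipitation and sequencing, with single reads of 50 bp, in 1 WT and 1 HD library of pooled hippocampi. The authors deposited 1 peak list per library, with the start and end of each peak in bp and a score. MACS appears in the peak names of the files. Its version, its settings and whether it used the input are not given here by any source. Per the submitters' processing notes reads were handled with SAMtools, BWA 0.5.9 and CASAVA 1.8.2, on build mm9, also called NCBIM37. The deposited score, from 50.01 to 3233.06 in both lists, has no stated unit and was compared within a list only. The files hold no read counts, so depth is unknown and no counting interval was given.

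Peaks were joined into regions by an overlap of at least 1 bp and measured over their full length, with Python 3.11.15, numpy 2.4.6 and pandas 2.3.3; plots were drawn with matplotlib 3.10.9. The code was tested on simulated lists. Positions are mm9, counted from 1. The members and windows were chosen with earlier results of these data known, all 7 members were named, and the order of scores over shared regions and the distances around Cnr1 were added after the values were seen. Alternatives were merging of peaks within 1 kb, lists of equal number by score, a score of at least 100, clipped or wholly contained peaks, windows widened by 10 kb and the region nearest to the Cnr1 window. Gene neighbours and promoters are from RefSeq (GRCm38.p6) by symbol, and no coordinates were converted between builds.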

Additional observations from a re-analysis of the deposited data

How the results depend on the processing

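Peaks remained in 6 of 7 windows in each library with peaks within 1 kb merged or windows widened by 10 kb. The same held with equal numbers of top scoring peaks and with peaks clipped to or wholly in the windows. Merging, clipping and widening cannot remove a peak from a window, and every peak already lay wholly in its window. Equal numbers left the shorter WT list uncut. The minimum score of 100 did change presence, with a peak in 4 windows in WT and in 5 in HD. When scores had to reach 100 the Drd2 peaks were left out of both lists and the Adora2a peak of the WT list. This gave 1 region in a single library. Windows widened by 10 kb also held 1 such region, with an HD peak only. The median log2 ratio of the regions in the windows, 0.053 as deposited, was -0.037 with the minimum score, -0.033 with widened windows and 0.024 with the region nearest to the Cnr1 window counted, the last chosen after the data were seen. HD covered less in 3 of 8 shared regions as deposited and in 5 of 10 with widened windows, against 69.0% of all shared regions. The minimum score gave 3 of 6, and counting the region nearest to the Cnr1 window gave 4 of 9. The regions added by widening lay beside the Ppp1r1b window and were not assigned to a gene. Merging within 1 kb brought the Bdnf log2 ratio from -0.13 to -0.088, since it closes the gap between the HD peaks. Widening the windows brought the Ppp1r1b log2 ratio from 0.10 to 0.14. The shared regions that it added were shorter in HD, at log2 ratios of -0.51 and -0.090. The rise thus came from the added region with an HD peak only. No single ratio of a gene changed sign under the alternatives run, and the minimum score left no ratio for Drd2 and Adora2a. No paired analysis was possible because the genotypes have a single library each. Depth is unknown, which limits what weak peaks such as those of Drd2 can show. The length, edges and division of a called peak can also vary with depth and enrichment. The differences at Penk and Bdnf carry the same limit, and their dependence on depth was not tested.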
